A study of Mus musculus with 7 samples.

Results

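The integrated stress response is the pathway by which a cell lowers general protein synthesis and turns on a repair programme, and 10 of its regulators were followed here: the eIF2α kinases *Eif2ak1*, *Eif2ak2*, *Eif2ak3* and *Eif2ak4*, the phosphatase subunits *Ppp1r15a* and *Ppp1r15b*, and the transcription regulators *Atf4*, *Atf5*, *Cebpg* and *Nupr1*. They were taken by gene symbol, and all 10 were among the 14819 rows of the count table and the 14779 genes tested. Primary hepatocytes, which make up most of the liver's mass, had been isolated from male mice by collagenase perfusion, cultured in medium with serum and incubated overnight without treatment. RNA was sequenced from 4 samples of WT mice and 3 samples of WDR6-WKO mice. In WDR6-WKO mice *Wdr6* had been deleted in the whole body by removing exon 2 with CRISPR–Cas9, so every cell type of the culture lacks the intact gene, not the hepatocytes alone. The methods call replicates biological. The methods name 7-week-old C57BL/6J mice as the default, and an age of the hepatocyte donors themselves, or the days of isolation, are not given in the sources used here. The comparison of the genotypes asks which transcripts differ when WDR6 is absent.

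In this pathway each kinase answers to its own stress: HRI (*Eif2ak1*) to haem shortage and mitochondrial or oxidative stress, PKR (*Eif2ak2*) to double-stranded RNA, PERK (*Eif2ak3*) to unfolded protein in the endoplasmic reticulum and GCN2 (*Eif2ak4*) to shortage of amino acids. All phosphorylate the α subunit of the initiation factor eIF2, which slows initiation on most messages while that of *Atf4* is translated better. PP1 bound to GADD34 (*Ppp1r15a*), which is induced by the response, or to CReP (*Ppp1r15b*), which is made constitutively, takes the phosphate off again. In the liver the response is known for adapting amino acid metabolism to diet. Read counts measure RNA, so neither the phosphorylation of eIF2α nor the ATF4 protein was observed.

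Short stretches of 3 promoters are shown because they hold letters of motifs to which factors of this pathway, or of the interferon response, are known to bind. RefSeq promoter windows (GRCm38.p6, from 250 bases before to 50 after the start site) matched 9 of the 10 genes, and *Ppp1r15b* had no entry. Both strands were searched for TGATGNAA, the core of the C/EBP–ATF response element used by ATF4, for the core of the interferon-stimulated response element (GAAA, any 2 bases, GAAA), for TGACGTCA, the cAMP response element, and for the endoplasmic reticulum stress element (CCAAT and CCACG, 9 bases apart). The cAMP element reads the same on both strands and was counted once. Capitals mark the match, and each line is read 5′ to 3′ along the gene.
*Nupr1*, C/EBP–ATF element on the opposite strand, chr7:126625562-126625591, minus strand: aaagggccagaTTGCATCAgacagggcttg
*Eif2ak2*, interferon element, chr17:78882535-78882564, minus strand: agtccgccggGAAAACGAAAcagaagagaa
*Ppp1r15a*, cAMP element, chr7:45526262-45526291, minus strand: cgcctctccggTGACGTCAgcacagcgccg
*Ppp1r15a*, interferon element, chr7:45526469-45526498, minus strand: aaaataaaagGAAAGGGAAAtggcacggta
Both matches of *Ppp1r15a* lie upstream of the start site, and that of *Eif2ak2* begins 18 bases downstream of it, within the first exon. That of *Nupr1* lies upstream of the RefSeq start but in the first exon of the GENCODE principal transcript, whose start is farther upstream. Of all 32851 RefSeq promoter windows, 3.97% hold the C/EBP–ATF core, 3.44% the interferon core, 1.79% the cAMP element and 0.119% the endoplasmic reticulum stress element, which was in none of the 9 genes' windows. A match is a description of the sequence and was not tested for binding. The other 6 genes with an entry had no match to these letters in their windows.

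Counted reads numbered 17816913 to 23668940 a library. With a threshold of 0.05 on the adjusted p of edgeR, 12.8% of all genes tested differed between the genotypes, 6.65% being higher and 6.18% lower in WDR6-WKO hepatocytes, or 1212 higher and 696 lower genes with library sizes alone against 983 and 914 with TMM scaling. *Wdr6* was counted 769 to 972 times in WT libraries and 40 to 62 times in WDR6-WKO libraries, so the labels hold for the targeted gene. WDR6-WKO replicate 3 stood apart, with a chi-square of 14.4 and 16.2 per gene against the other 2 WDR6-WKO libraries, where these differed from each other by 5.17. Without it 2150 genes were higher and 2083 lower. The 10 hepatocyte markers were detected in every library, from as few as 9 reads for *Tat*, with summed levels of 17297 to 20478 CPM (read counts scaled to library size with TMM factors) in WT and 15008 to 16991 CPM in WDR6-WKO.

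Means are followed by the s.d. over 4 WT or 3 WDR6-WKO libraries, fold changes are log2 values of WDR6-WKO over WT with their standard error (SE), and adjusted p values are those of the edgeR quasi-likelihood test after Benjamini-Hochberg adjustment. Of the 10 regulators, 7 rose and 1 fell in WDR6-WKO hepatocytes, against 6.65% and 6.18% of all genes. *Ppp1r15a*, *Ppp1r15b*, *Atf4*, *Atf5*, *Cebpg*, *Nupr1* and the kinase gene *Eif2ak2* rose, and the kinase gene *Eif2ak3* fell. The log2 fold changes ran from -0.33 for *Eif2ak3* to 0.90 for *Nupr1*, with a median of 0.31 beside 0.01 over all genes tested. In the 8 genes called, the CPM ranges of the genotypes did not overlap, as for 23.5% of all genes. In each of these 8 the exact two-sided permutation test of log2 CPM gave p = 0.0286, the smallest that 4 samples against 3 allow. This p largely follows from the separate ranges, so it adds no further support to the calls. The 7 higher genes were also called by DESeq2 and limma-voom. The rule of the study's methods is P below 0.05 and a log2 change of 0.35 or more in either direction. Applied here to the edgeR fit, where the study used DESeq2, it called 10.4% of all genes, 949 higher and 583 lower. It kept 5 of the 7 higher regulators.

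**Figure D1:**
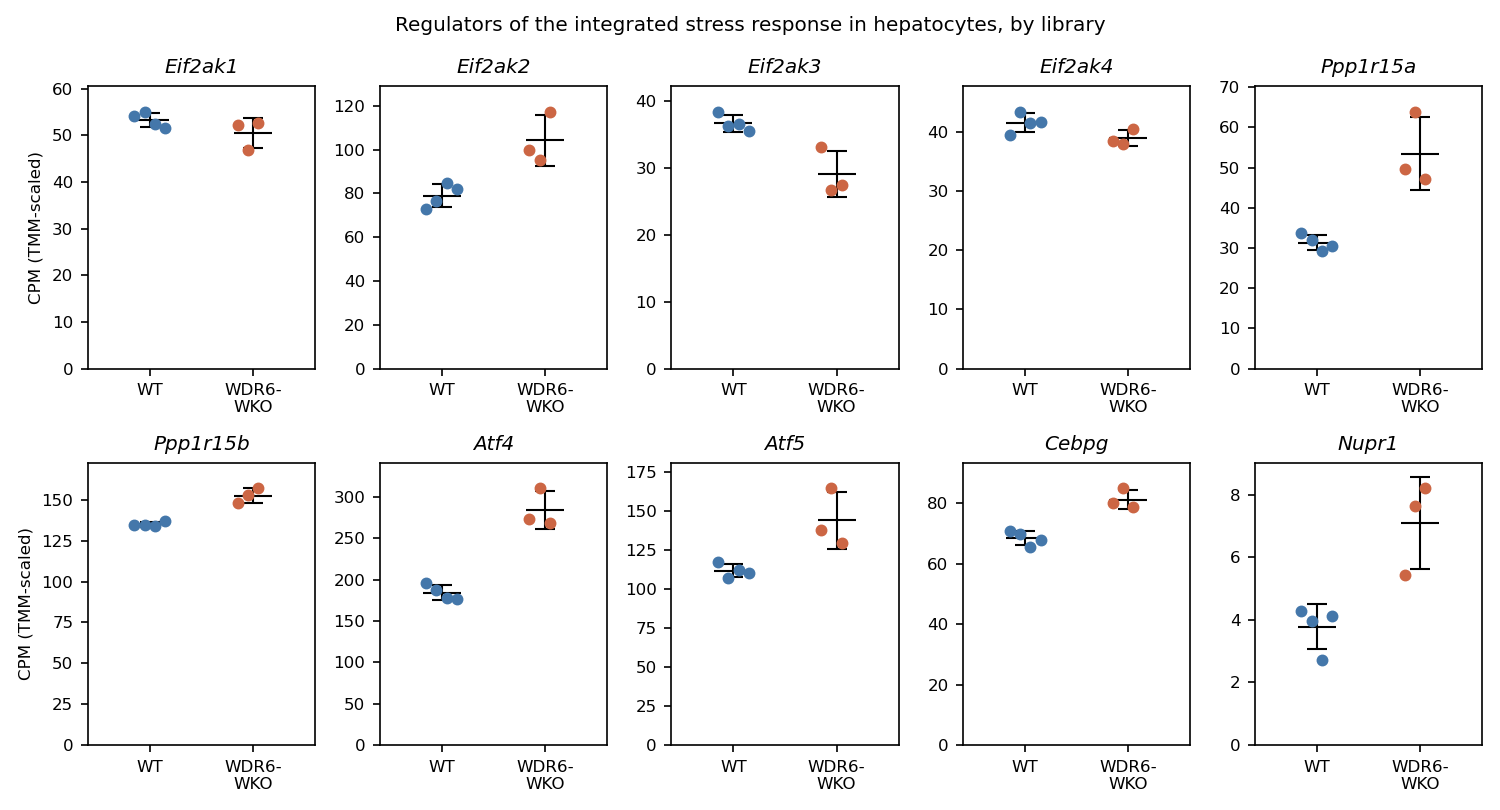
TMM-scaled CPM of the 10 regulators (vertical axes from 0) in each WT library (blue, n = 4) and WDR6-WKO library (orange, n = 3), with the mean and s.d. as a bar and whiskers. The groups do not overlap for 8 genes, while *Eif2ak1* and *Eif2ak4* overlap.

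The transcription factor *Atf4*, the effector of the pathway, stood at 195, 187, 178 and 177 CPM in WT replicates 1 to 4. In WDR6-WKO replicates 1 to 3 it stood at 273, 310.4 and 269 CPM. Every WDR6-WKO library lay above every WT library, and WDR6-WKO replicate 2 was the highest. The mean was 184 ± 8.68 CPM in WT and 284 ± 23.0 CPM in WDR6-WKO, or 154% of the WT level. This is a fold change of 0.62 (SE 0.06, edgeR adjusted p = 3.25e-06), which placed *Atf4* at rank 64 of the genes tested by p. *Atf4* lies on chromosome 15 of GRCm38 from 80255184 to 80257541 on the plus strand, has 3 exons and shares no exon bases and no 50-base sequence with another annotated gene. With 1 library left out at a time, its log2 fold change stayed between 0.55 and 0.66, and it passed the test each time.

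*Atf5* encodes a factor related to ATF4 that is translated in a like manner and is linked to mitochondrial stress. Its level was 117, 107, 112 and 110.5 CPM in WT replicates 1 to 4 and 138, 164 and 130 CPM in WDR6-WKO replicates 1 to 3. The groups were separate, with WDR6-WKO replicate 2 again the highest. *Atf5* rose by 0.37 (SE 0.07, edgeR adjusted p = 0.00294), and it was 0.26 without WDR6-WKO replicate 2 and still passed. *Cebpg* encodes C/EBPγ, a short partner of ATF4 in binding to DNA. It was counted at 70.7, 69.8, 65.6 and 67.8 CPM in WT and at 80.0, 85.1 and 78.9 CPM in WDR6-WKO. Its libraries lay close together within each genotype, with a log2 fold change of 0.25 (SE 0.05, edgeR adjusted p = 0.00760). On chromosome 7, *Atf5* runs from 44812256 to 44816658 on the minus strand and *Cebpg* from 35046422 to 35056573. *Atf5* shares 82 exon bases with *Nup62* and *Il4i1* on the opposite strand, and *Nup62* itself had a log2 fold change of 0.12 (edgeR adjusted p = 0.22).

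*Nupr1*, a small stress-induced regulator of transcription and a known ATF4 target, had the lowest mean CPM of the 10 in both genotypes. It gave 85, 76, 51 and 82 reads in WT replicates 1 to 4 and 131, 162 and 147 reads in WDR6-WKO replicates 1 to 3. In CPM these are 4.29, 3.98, 2.71 and 4.12 in WT and 5.44, 7.65 and 8.21 in WDR6-WKO. WT replicate 3 was the lowest library and WDR6-WKO replicate 1 the closest to WT. The log2 fold change of 0.90 had the widest standard error of the 10, 0.18 (edgeR adjusted p = 0.00352). It stayed between 0.77 and 1.06 with each library left out. The gene runs from 126623249 to 126630861 on chromosome 7, minus strand.

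The phosphatase subunits both rose, by different amounts. *Ppp1r15a* (GADD34) stood at 33.7, 31.9, 29.2 and 30.5 CPM in WT and at 49.5, 63.9 and 47.0 CPM in WDR6-WKO. All WDR6-WKO libraries were above the WT range, and replicate 2 stood highest among them. *Ppp1r15a* rose by 0.77 (SE 0.09, edgeR adjusted p = 8.49e-05), or 171% of the WT mean, and 0.62 without WDR6-WKO replicate 2. *Ppp1r15b* (CReP) stood at 134.6, 134.4, 134.2 and 137.3 CPM in WT and at 148, 153 and 157 CPM in WDR6-WKO. These groups were separate as well, by a narrow margin, and WT libraries of this gene were the most alike of the 10, with a coefficient of variation of 1.08%. *Ppp1r15b* rose by 0.18 (SE 0.05, edgeR adjusted p = 0.0216). That call was lost when any 1 of the WT replicates or WDR6-WKO replicate 2 was left out, with adjusted p between 0.0535 and 0.0716 in the edgeR test and fold changes between 0.17 and 0.18. The gene spans 133131143 to 133139783 on the plus strand of chromosome 1, and *Ppp1r15a* 45522916 to 45526268 on the minus strand of chromosome 7. *Ppp1r15b* shares 10.7% of its 50-base sequences with *Gm26616*, which is annotated on the opposite strand, and the strand setting of the counts is not given in the sources used here.

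The phosphatase subunits differed from each other in their response. The ratio of *Ppp1r15a* to *Ppp1r15b* CPM was 0.25, 0.237, 0.218 and 0.222 in the WT libraries and 0.335, 0.418 and 0.299 in the WDR6-WKO libraries. Each WDR6-WKO library had relatively more of the inducible subunit than any WT library. The mean log2 ratio was 0.58 higher in WDR6-WKO (p = 0.0286 in an exact two-sided permutation test, the smallest possible, and 0.0357 after Benjamini-Hochberg adjustment over 5 ratios). Per kilobase of transcript, *Ppp1r15a* had 11.2 ± 0.683 CPM in WT and 19.0 ± 3.24 in WDR6-WKO, and *Ppp1r15b* had 24.2 ± 0.262 and 27.3 ± 0.818. On this scale, with a transcript of 2809 bases taken for *Ppp1r15a*, CReP transcripts were the more abundant in both genotypes. With its other coding transcript, of 2333 bases, the levels of *Ppp1r15a* per kilobase would be higher.

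Among the eIF2α kinases, *Eif2ak2* rose, *Eif2ak3* fell and the other 2 did not pass the test. PKR transcripts (*Eif2ak2*) stood at 73.0, 76.5, 84.5 and 81.8 CPM in WT and at 99.8, 95.4 and 117 CPM in WDR6-WKO. Here WDR6-WKO replicate 3 was the highest, not replicate 2. The mean rose from 78.9 ± 5.20 CPM to 104 ± 11.6, a log2 fold change of 0.40 (SE 0.07, edgeR adjusted p = 0.00182). It lay between 0.30 and 0.46 with each library left out and passed each time. The 16 exons of *Eif2ak2* span 78852564 to 78882573 on chromosome 17, minus strand. It shares 3.45% of its 50-base sequences with other genes, mostly with *Gm26637* on the opposite strand.

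PERK transcripts (*Eif2ak3*) moved the other way. They stood at 38.4, 36.2, 36.6 and 35.4 CPM in WT and at 33.1, 26.7 and 27.4 CPM in WDR6-WKO. All WDR6-WKO libraries lay under the WT range, replicate 1 by the least. The mean fell from 36.6 ± 1.24 CPM to 29.1 ± 3.49, a log2 fold change of -0.33 (SE 0.08, edgeR adjusted p = 0.0124). Without WDR6-WKO replicate 2 it was -0.27 and was no longer called (edgeR adjusted p = 0.0761), and without replicate 1 it was -0.44. *Eif2ak3* lies on the plus strand of chromosome 6 from 70844515 to 70905245 and shares 7.64% of its 50-base sequences with *Gm43292*, annotated on the opposite strand.

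HRI transcripts (*Eif2ak1*) stood at 54.1, 55.0, 52.3 and 51.6 CPM in WT and at 52.2, 46.8 and 52.6 CPM in WDR6-WKO, so the groups overlapped. The log2 fold change was -0.08 (SE 0.06, edgeR adjusted p = 0.452). *Aimp2*, which overlaps exons of *Eif2ak1* on the opposite strand, had a log2 fold change of -0.08 as well (adjusted p = 0.585). GCN2 transcripts (*Eif2ak4*) stood at 39.5, 43.4, 41.4 and 41.7 CPM in WT and at 38.4, 37.9 and 40.5 CPM in WDR6-WKO, overlapping at the edge. The log2 fold change was -0.09 (SE 0.06, edgeR adjusted p = 0.359). *Eif2ak1* lies on chromosome 5 from 143817788 to 143904251 and *Eif2ak4* on chromosome 2 from 118388618 to 118475234, both on the plus strand.

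The makeup of the kinase transcripts differed between the genotypes. The ratio of *Eif2ak2* to the geometric mean of the other 3 kinases was 1.68, 1.73, 1.97 and 1.93 in the WT libraries and 2.47, 2.64 and 3.02 in the WDR6-WKO libraries. The groups did not overlap, and the difference of 0.57 in log2 reached p = 0.0286 in the exact permutation test (0.0357 adjusted over 5 ratios). Per kilobase of transcript, *Eif2ak2* made up 39.2 ± 1.92% of the 4 kinases in WT and 48.5 ± 2.42% in WDR6-WKO. The sum of the 4 was 46.7 ± 0.918 CPM per kilobase in WT and 49.8 ± 3.53 in WDR6-WKO.

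**Figure D2:**
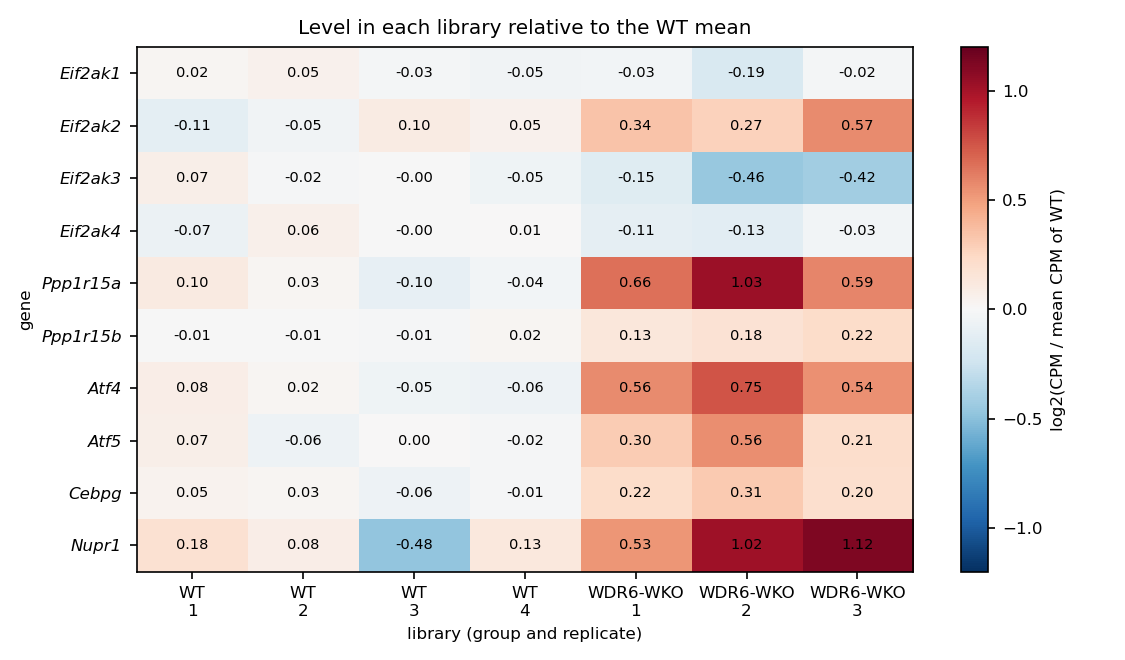
Level of each regulator in each of the 7 libraries as log2 of its CPM over the mean CPM of WT (colour and printed value). *Atf4*, *Atf5*, *Cebpg* and *Ppp1r15a* are highest in WDR6-WKO replicate 2, while *Eif2ak2*, *Ppp1r15b* and *Nupr1* are highest in WDR6-WKO replicate 3.

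The regulators that rose were not all highest in the same WDR6-WKO library. *Atf4*, *Atf5*, *Cebpg* and *Ppp1r15a* were highest in replicate 2 and lowest in replicate 3, with log2 levels over the WT mean of 0.75 and 0.54 for *Atf4*, 0.56 and 0.21 for *Atf5*, 0.31 and 0.20 for *Cebpg* and 1.03 and 0.59 for *Ppp1r15a*. In contrast, *Eif2ak2*, *Ppp1r15b* and *Nupr1* were highest in replicate 3, at 0.57, 0.22 and 1.12, with *Eif2ak2* lowest in replicate 2 and *Ppp1r15b* and *Nupr1* lowest in replicate 1. With 3 libraries these orders are a description. Among 13440 genes with a mean of at least 1 CPM, those whose log2 CPM followed *Atf4* most closely over the 7 libraries were *Sesn2*, *Pck2*, *Klhl22*, *Scpep1* and *Nars*, with Pearson's r between 0.994 and 0.997. The same measure put *Ppp1r15a* at rank 14, *Cebpg* at 20, *Atf5* at 253, *Ppp1r15b* at 398, *Nupr1* at 662 and *Eif2ak2* at 1708, and r was negative for *Eif2ak1*, *Eif2ak3* and *Eif2ak4*. For *Eif2ak2* the closest were *Zc3hav1*, *Ddx52*, *Samhd1*, *Samd9l* and *Gbp7* (r between 0.988 and 0.999), and *Atf4* was at rank 1044. For *Nupr1* they were *Rab32*, *Mamdc4*, *Bloc1s2*, *Tifab* and *Fabp7* (r between 0.977 and 0.994). The points fall into the 2 genotypes, which alone raises r for a gene that differs between them, and no p is given.

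**Figure D3:**
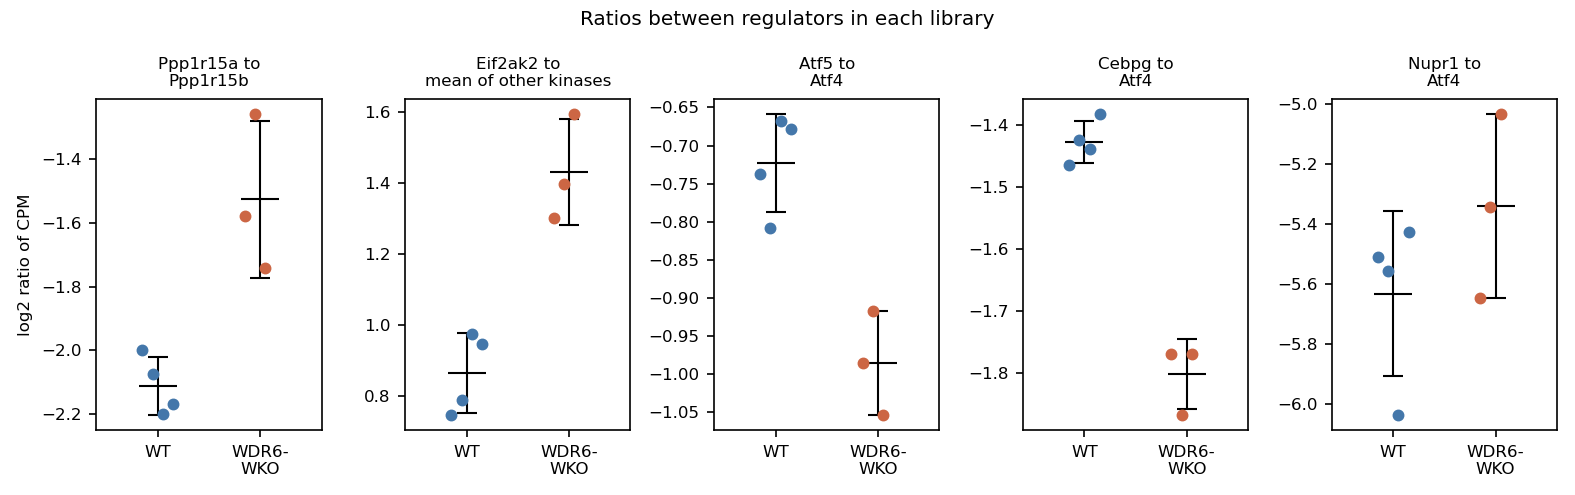
Log2 ratios of CPM between pairs of regulators in each WT library (blue, n = 4) and WDR6-WKO library (orange, n = 3), with the mean and s.d. on axes that do not start at 0. The groups overlap for *Nupr1* to *Atf4* but not for the other ratios.

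Relative to *Atf4*, the factors *Atf5* and *Cebpg* rose less. The log2 ratio of *Atf5* to *Atf4* was -0.72 ± 0.06 in WT and -0.98 ± 0.07 in WDR6-WKO, a difference of -0.26 with separate ranges (p = 0.0286 in the exact permutation test, 0.0357 adjusted over 5 ratios). The ratio of *Cebpg* to *Atf4* was -1.43 ± 0.03 in WT and -1.80 ± 0.06 in WDR6-WKO, a difference of -0.37 with the same p values in the exact test (n = 4 and 3). The ratio of *Nupr1* to *Atf4* was -5.63 ± 0.27 in WT and -5.34 ± 0.31 in WDR6-WKO. Its ranges overlapped and the difference of 0.29 did not pass the exact permutation test (p = 0.314), so a larger rise of *Nupr1* than of *Atf4* was not detectable.

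Per kilobase of the principal transcript in the GENCODE annotation, WT levels ranked from *Atf4* at 107 CPM per kilobase over *Atf5* at 61.5, *Ppp1r15b* at 24.2, *Eif2ak2* at 18.3, *Cebpg* at 14.5, *Eif2ak1* at 12.3, *Ppp1r15a* at 11.2, *Eif2ak3* at 8.12 and *Eif2ak4* at 7.97 to *Nupr1* at 4.55. Neighbours in this order had separate ranges in WT, except *Eif2ak1* with *Ppp1r15a* and *Eif2ak3* with *Eif2ak4*. In WDR6-WKO, *Atf4* (165) and *Atf5* (79.2) were still apart from the rest, *Ppp1r15a* (19.0) stood at rank 5 where it was at rank 7 in WT, and *Eif2ak3* (6.44) came last. The ranges of *Ppp1r15b* with *Eif2ak2*, *Eif2ak2* with *Ppp1r15a*, *Ppp1r15a* with *Cebpg*, *Nupr1* with *Eif2ak4* and *Eif2ak4* with *Eif2ak3* overlapped there. These ranks depend on the transcript taken, since the coding transcripts measure 914 to 4709 bases for *Cebpg*, 595 to 1816 for *Atf5*, 927 to 4513 for *Eif2ak3*, 1715 to 5298 for *Eif2ak4* and 2333 to 2809 for *Ppp1r15a*.

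Several of these messages are known to be controlled by short reading frames upstream of their coding sequence, and the GENCODE transcripts show them. In the principal transcript of *Atf4* the leader of 594 bases holds 3 AUG codons in all, of which the last opens a frame of 59 codons that runs over the coding start by 83 bases. The leader of *Atf5* has the same layout at its end, a frame of 3 codons followed by 1 of 58 codons that overlaps the coding start by 56 bases. The leader of *Ppp1r15a* is the longest, with 764 bases and 7 AUG codons, and that of *Ppp1r15b* has 604 bases and 3. The last of the 7 in *Ppp1r15a* opens a frame of 50 codons that overlaps the coding start by 76 bases. In *Eif2ak2* the leader of 190 bases holds 1 AUG, whose frame of 65 codons overlaps the coding start by 67 bases. In *Eif2ak3* it has 211 bases and 3 AUG codons, of which 2 open frames that overlap the coding start, by 269 bases and 1 base. The leaders of *Cebpg* and *Nupr1* hold 1 each, and those of *Eif2ak1* and *Eif2ak4* have no AUG. These leaders are those of the transcript taken for each gene. Other coding transcripts, such as that of 2333 bases for *Ppp1r15a*, were not searched and may have other leaders. The counts do not show how these frames were used.

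The other genes of the pathway were grouped by role. Of the 8 subunits of eIF2 and of its exchange factor eIF2B, *Eif2s2*, the β subunit of eIF2, rose with a log2 fold change of 0.29 (edgeR adjusted p = 0.00223) and 7 did not pass. *Eif2s1*, which encodes the α subunit that the kinases phosphorylate, stood at 159 ± 3.05 CPM in WT and 168 ± 5.72 in WDR6-WKO, with an adjusted p of 0.286 in the edgeR test. Of 10 proteins that restrain or activate the kinases, *Tarbp2*, an RNA-binding inhibitor of PKR, rose (log2 fold change 0.27, edgeR adjusted p = 0.0327) and 9 did not pass. Among these the adaptors *Nck1* and *Nck2* had log2 fold changes of -0.17 and 0.21. Of 7 PP1 catalytic subunits and inhibitors, *Ppp1r8*, a nuclear inhibitor of PP1, rose by 0.31 (edgeR adjusted p = 0.0210), and the catalytic subunit gene *Ppp1ca* had a log2 fold change of 0.08 that did not pass. The medians of the 3 lists were 0.08, -0.06 and 0.01, and 1 gene called of 8, 10 or 7 stands beside 6.65% of all genes higher. With each library left out, 1 eIF2 or eIF2B gene was higher, whereas no kinase regulator was higher without WDR6-WKO replicate 1 or 2 or WT replicate 2, 3 or 4, and no PP1 gene without WDR6-WKO replicate 1 or 2 or WT replicate 1, 2 or 4. With the replicate number taken as a block, no kinase regulator was higher either, so *Tarbp2* lost its call there. Without WDR6-WKO replicate 3, 2 kinase regulators were higher and 3 lower, and 3 PP1 genes were higher and 1 lower. By the rule of the study's methods 0 genes of the 3 lists were higher, *Eif2s2*, *Tarbp2* and *Ppp1r8* all being under its fold threshold.

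Targets of ATF4 rose broadly. Of 27 tested, 23 rose and 4 did not pass, where 6.65% of all genes were higher, and the median log2 fold change was 0.93. The fold changes ran from -0.10 for *Gpt2* to 2.79 for *Stc2*, which had no read in some WT libraries and a WT mean of 0.177 CPM. The targets with the smallest p were *Slc7a1*, a cationic amino acid transporter (log2 fold change 1.01), *Psph* (0.99) and *Psat1* (0.96) of serine synthesis, *Aldh18a1* of proline synthesis (1.09) and the mitochondrial PEPCK gene *Pck2* (1.23). *Slc7a1* stood at 42.4 ± 2.69 CPM in WT and 85.7 ± 3.62 in WDR6-WKO, with an adjusted p of 5.88e-08 in the edgeR test. In single WDR6-WKO libraries the median of the targets over the WT mean was 0.72, 1.03 and 0.88 in replicates 1 to 3, against -0.07 to 0.06 in WT, so the targets were highest in replicate 2 and lowest in replicate 1, where *Atf4* was highest in replicate 2 and lowest in replicate 3. Some of these genes were already known to differ when the list was drawn up.

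Among 13 other bZIP factors that can pair with ATF4, ATF5 or C/EBPγ, 4 rose and 2 fell, with a median of 0.20, where 6.65% of all genes were higher and 6.18% lower. The higher count was 2 without WDR6-WKO replicate 1 or 2 and 9 without WDR6-WKO replicate 3, and the lower count was 1 without WDR6-WKO replicate 1 or WT replicate 1 or 2. *Ddit3* (CHOP), a proapoptotic partner of C/EBP factors, rose from 9.33 ± 1.62 CPM to 31.9 ± 8.94, a log2 fold change of 1.77 (edgeR adjusted p = 0.000514). *Atf3*, a repressor induced by stress, rose by 0.93, and *Nfe2l1* by 0.27. *Nfe2l2* (NRF2), the regulator of antioxidant genes, and *Cebpa*, a factor of hepatocyte identity, fell by 0.37 and fell by 0.29. Of 9 genes that control the ATF4 protein, the pseudokinase gene *Trib3* rose (log2 fold change 1.85) and the prolyl hydroxylase gene *Egln3* fell from 39.3 ± 2.75 CPM to 22.8 ± 2.27 (log2 fold change -0.79, edgeR adjusted p = 1.31e-05). Under the replicate block no gene of these 9 was higher, so *Trib3* lost its call there, while 3 were lower without WDR6-WKO replicate 3 and 2 without WT replicate 1 or by DESeq2. *Ddit3*, *Atf3* and *Trib3* are also on the list of ATF4 targets.

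**Figure D4:**
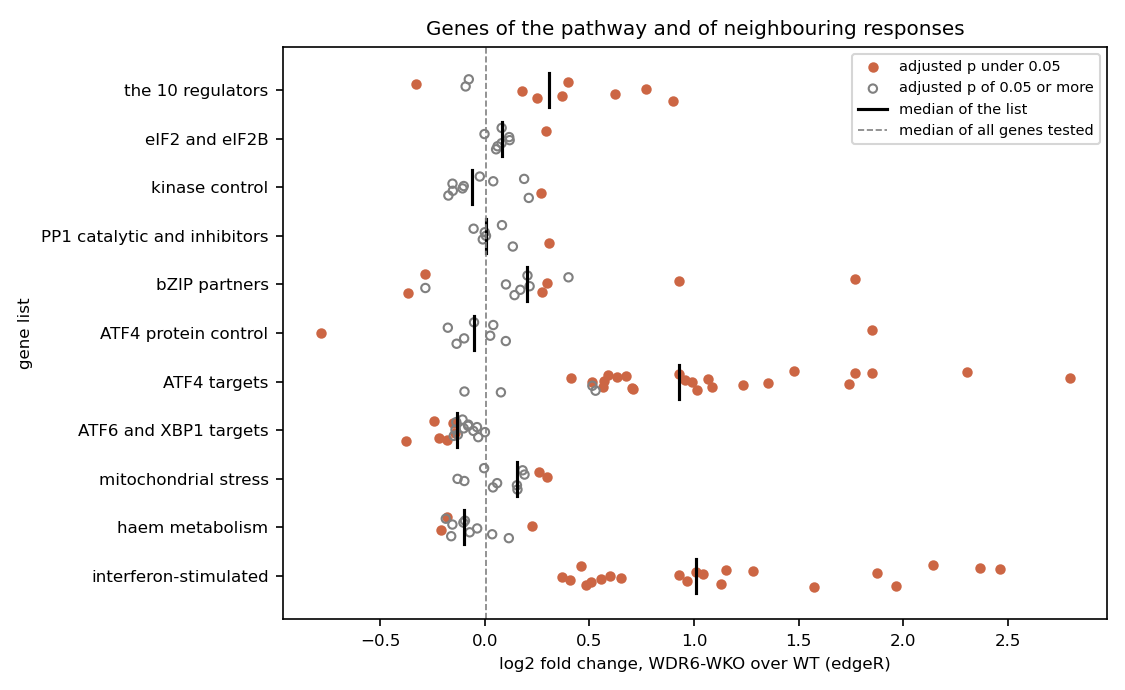
Log2 fold change of WDR6-WKO over WT (horizontal axis) for the genes of each list (rows), filled where the adjusted p of the edgeR test is under 0.05, with the median of the list as a black line and that of all genes as a dashed line. ATF4 targets and interferon-stimulated genes lie to the right, with medians of 0.93 and 1.01, and targets of ATF6 and XBP1 to the left, with a median of -0.13.

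Targets of ATF6 and XBP1, the branches that act beside *Eif2ak3* in the endoplasmic reticulum, did not rise with *Atf4* at the RNA level. The activity of ATF6 and XBP1 was not measured. Of 18 targets of ATF6 and XBP1, 6 fell and 12 did not pass, against 6.18% of all genes that were lower. *Xbp1* itself fell from 254 ± 6.40 CPM to 195 ± 4.08, a log2 fold change of -0.38 (edgeR adjusted p = 5.02e-05). The chaperone gene *Hsp90b1* fell by 0.25, *Syvn1* and *Edem1* of protein degradation fell by 0.22 and 0.18, and *Pdia4* fell by 0.15. The median was -0.13, and it lay between -0.17 and -0.12 over the WT mean in single WDR6-WKO libraries. The count moved from 2 without WT replicate 2 or WDR6-WKO replicate 2, and 3 without any other WT replicate, to 10 without WDR6-WKO replicate 3.

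Beside *Eif2ak1*, which senses haem, 1 of 12 genes of haem metabolism rose and 2 fell, where 6.65% and 6.18% of all genes did. These were *Cpox* with a log2 fold change of 0.23 and *Fech* and *Alas1*, the last and the rate-limiting enzymes of haem synthesis, with -0.21 and -0.18. Of 11 mitochondrial chaperones and proteases, which *Atf5* is linked to, *Hspa9* (0.26) and *Clpp* (0.30) rose and 9 did not pass. The medians were -0.10 and 0.15. No haem gene was higher without WDR6-WKO replicate 1 or 2 or WT replicate 3 or 4. Lower haem genes numbered 1 without WDR6-WKO replicate 2, without any 1 WT replicate or with library sizes alone. Under the replicate block no haem gene and 1 mitochondrial gene were higher. Of the mitochondrial genes, 1 was higher without WDR6-WKO replicate 1 or 2 or WT replicate 1, 3 or 4, 6 were higher and 1 lower without WDR6-WKO replicate 3, and 5 were higher with library sizes alone. By the rule of the study's methods no gene of either list was called.

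*Eif2ak2* is itself an interferon-stimulated gene, and all 21 others on a list of that class rose, against 6.65% of all genes. Their median log2 fold change was 1.01, with *Rsad2* (2.46), *Ifit3* (2.37), *Oasl1* (1.15), *Ifit1* (2.14) and *Usp18* (1.04) having the smallest p. The lowest of the 21, at 0.37, was close to the 0.40 of *Eif2ak2*. This list too was drawn up with the rise of such genes known. Markers of other cells moved as well. Of 12 markers of Kupffer cells, the macrophages of the liver, 3 rose (*Lyz2*, *C1qc* and *C1qb*, with log2 fold changes of 0.64, 0.48 and 0.30). Of the 12, 11 had positive fold changes. The exception, *Timd4*, stood at -0.48 and was not called (edgeR adjusted p = 0.0880), though it was lower by the rule of the study's methods. The summed level of the 12 was 860 to 939 CPM in WT and 993 to 1191 CPM in WDR6-WKO. None of the 12 was at 0 in any library. In WDR6-WKO replicates 1 to 3 the median over the WT mean was 1.03, 1.11 and 0.94 for the interferon-stimulated genes and 0.17, 0.31 and 0.05 for the Kupffer cell markers, beside 0.34, 0.27 and 0.57 for *Eif2ak2*. Without WDR6-WKO replicate 3, 7 Kupffer cell markers were higher, and 2 without either other WDR6-WKO replicate or WT replicate 1 or 2. Of 8 stellate cell markers 2 rose and 3 had negative fold changes, and of 8 endothelial markers 1 fell, where 6.18% of all genes were lower. Of 6 cholangiocyte markers 2 rose and 3 had negative fold changes, with a median of 0.07. Their summed level, 3099 to 3394 CPM in WT and 3742 to 4337 in WDR6-WKO, is mostly that of *Spp1* (2980 and 3693 CPM). The stellate and cholangiocyte counts were 0 by the rule of the study's methods and 1 without WDR6-WKO replicate 1 or 2 or WT replicate 1 or 2, the latter also without WT replicate 3, and no endothelial marker was lower without WDR6-WKO replicate 2 or WT replicate 3 or 4. Of 10 markers of other leukocytes, *Itgax* and *Ptprc* alone were analysed, and *Itgax* rose from 2.10 to 4.33 CPM (log2 fold change 1.04), while *Ptprc* stood at 14.9 and 14.6 CPM (log2 fold change -0.03, edgeR adjusted p = 0.873). All 10 hepatocyte markers had negative fold changes. Of these 5 fell, against those 6.18%, with a median of -0.36 and *Ahsg* (fetuin A) and *Cps1* at -0.97 and -0.69. In such bulk samples fewer cells of a type and less RNA per cell cannot be told apart, and the part of these shifts in the differences of the regulators was not tested.

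**Figure D5:**
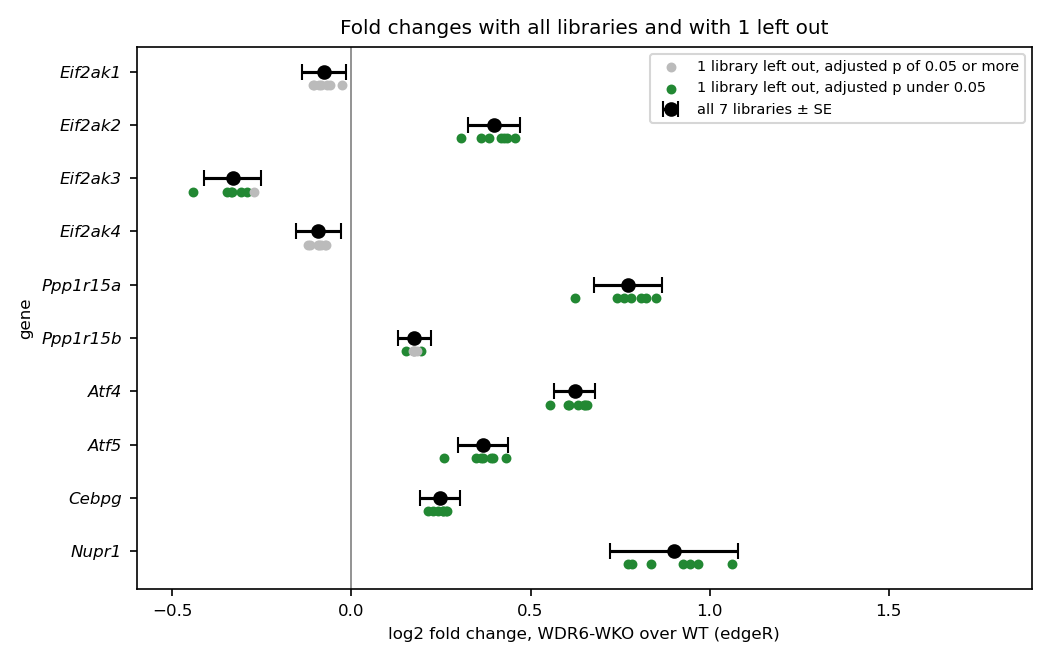
Log2 fold change of WDR6-WKO over WT for each regulator with all 7 libraries (black, ± standard error) and with each library left out in turn (small points, green where the adjusted p stays under 0.05 and grey where it does not). *Atf4* stays between 0.55 and 0.66, while *Ppp1r15b* and *Eif2ak3* have grey points.

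With each of the 7 libraries left out in turn, *Atf4*, *Atf5*, *Cebpg*, *Nupr1*, *Ppp1r15a* and *Eif2ak2* were called in every fit, with the highest adjusted p, 0.0405, for *Cebpg* without WDR6-WKO replicate 2 in the edgeR test. *Eif2ak1* and *Eif2ak4* were called in none and kept negative fold changes, from -0.11 to -0.03 and from -0.12 to -0.07. All 10 directions were the same with library sizes alone and with median-of-ratios size factors, which moved the median of all genes to 0.03 and kept it within 0.01 of 0.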

How the data were processed

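The authors sequenced hepatocyte RNA of 4 WT and 3 WDR6-WKO samples on an Illumina HiSeq platform. Reads were aligned to NCBI build 38/mm10, and the submitters' processing notes name Bowtie2 2.2.3. The deposited table holds raw read counts per gene symbol, without normalization, and no row total is below 50. The counting tool, annotation and strand setting are not given in the sources used here.

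From these counts, CPM with TMM factors and two-sided quasi-likelihood tests (robust fit, default filter on expression) came from edgeR 4.0.16 under R 4.3.3, with Benjamini-Hochberg adjustment over 14779 genes. Genes with an adjusted p under 0.05 were called. The methods of the study name DESeq2, which was run as an alternative (1.42.0), as were limma-voom (limma 3.58.1), other scalings, other filters, the replicate number as a block, each library left out and the DEG rule of the methods. That rule was applied to the unadjusted p and fold changes of edgeR. Standard errors follow from the fold change and F. Permutation tests covered all 35 splits, on log2 of CPM plus 0.5 for single genes. The edgeR step was tested on simulated data. Libraries of a genotype differed by more than sampling noise, so each counted as 1 sample, and edgeR put the biological coefficient of variation at 7.40%.

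The 10 regulators and the gene lists were chosen with earlier results of these data known. Named were all regulators and, in each list, up to 5 called genes with the smallest p, with uncalled genes added up to 3 in all where fewer were called, *Wdr6*, and the 5 genes most like *Atf4*, *Eif2ak2* or *Nupr1*. *Gpt2*, *Stc2* and *Timd4* (ends of a range), *Gm26616*, *Gm26637*, *Gm43292*, *Aimp2*, *Nup62* and *Il4i1* (overlapping genes) were named outside that rule. Not all genes that met it are named. Coordinates, transcripts and shared sequence came from GENCODE M21 (GRCm38).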

Additional observations from a re-analysis of the deposited data

Results flagged for a closer look

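*Ppp1r15b* in WT replicate 4 stood at 137.3 CPM, while the other WT replicates lay between 134.2 and 134.6 CPM. It was noted because the gap of this library to the nearest of the others was 0.859 of the range of the group, above the 95% critical value of Dixon's test for 4 samples. Of the 10 regulators, each checked in the 4 WT libraries, this was the 1 gene with such a library, and chance gives about 1 in 20. Without WT replicate 4 the log2 fold change of *Ppp1r15b* was 0.18, with an adjusted p of 0.0535 in the edgeR test.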

How the results depend on the processing

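DESeq2, limma-voom, both other scalings and both other filters kept the direction and the call of all 10 regulators. The number of genes higher over all tested ranged from 570 to 2150 with each library left out and the number lower from 462 to 2083, the low ends without WDR6-WKO replicate 2 and the high ends without WDR6-WKO replicate 3. Regulators called lower ranged from 0 to 1, since *Eif2ak3* ranged from -0.44 to -0.27 on the log2 scale and lost its call without WDR6-WKO replicate 2. *Ppp1r15b* ranged from 0.15 to 0.19, with its call lost in 5 of the 7 fits. Fits without a library have fewer samples. Targets of ATF6 and XBP1 called lower ranged from 2 to 10, and ATF4 targets called lower from 0 to 1. With P below 0.05 and a log2 change of 0.35 or more either way, 5 regulators were higher, without *Ppp1r15b* and *Cebpg*, and 583 genes were lower, 0 regulators and 1 target of ATF6 and XBP1, because most of these changes are smaller than that. The replicate numbers do not pair the samples (correlations of 0.04, 0.02 and 0.04 between same-numbered libraries). With the replicate block, which leaves out WT replicate 4, 7 regulators were higher and 1 lower, as without it, and 943 genes were higher and 806 lower. No permutation test of a ratio could reach 0.05 with a library left out. Over the other alternatives, 134 of 140 fold changes of regulators kept their side of the threshold and 6 were weaker, and with that rule included 77 of 480 counts over lists moved by more than 1.5 times. Depth limits *Nupr1*, with 51 to 162 reads a library.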
